A study of Mus musculus with 9 samples.

Results

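The 10 genes described here belong to the bone morphogenetic protein (BMP) pathway in the fetal mouse midbrain. They are 4 genes for BMP ligands (Bmp4, Bmp5, Bmp6 and Bmp7), the 4 Id genes (Id1, Id2, Id3 and Id4) and 2 Msx genes (Msx1 and Msx2), chosen by name. Each has 1 row in the deposited table, and all 10 were among the 14029 genes tested, of 21356 genes with a name. Midbrain RNA was sequenced at E13.5 from C57BL/6 fetuses of 3 genotypes with 3 libraries each. The floxed control (Gpr161 f/f) carried both floxed alleles and no Cre, the Cre control (Gpr161 f/+;Wnt1-Cre) had 1 floxed allele and the Wnt1-Cre transgene, and the cKO (Gpr161 f/f;Wnt1-Cre) had both. Every group therefore carries at least 1 floxed allele, and the Cre control can lose 1 copy of Gpr161 in the Wnt1 lineage. Wnt1-Cre acts in the dorsal neuroectoderm of the midbrain and in cranial neural crest, so the dissected tissue also holds cells in which no deletion takes place. The labels do not say that a library is 1 fetus or that litters differed, and the p-values measure the spread between these libraries.

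BMP ligands are secreted dimers that bind type I and type II serine/threonine kinase receptors on the receiving cell. The receptors phosphorylate Smad1, Smad5 and Smad9, which enter the nucleus with Smad4 and switch on target genes, among them the Id and Msx genes. Id proteins bind the E proteins, the common partners of proneural bHLH factors, and keep them off DNA. Msx proteins are homeodomain repressors of the dorsal midline of the neural tube, and both families are also active in meninges, vessels and head mesenchyme. Gpr161 itself restrains Sonic hedgehog signaling, which patterns the neural tube from the ventral side while BMPs act from the dorsal side. The comparison of cKO with the 2 controls asks how the midbrain transcriptome differs when Gpr161 is deleted in the Wnt1 lineage.

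The values are on a log2 scale, and the depth of the libraries is unknown because the table holds no read counts. Gpr161, the deleted gene, was at 11.80, 11.74 and 11.78 in the floxed libraries, at 11.77, 11.91 and 11.96 in the Cre control and at 11.74, 11.95 and 11.94 in the cKO, and the genotypes overlapped (log2 fold change of the cKO 0.11 over the floxed control, limma adjusted p = 0.223). The table does not separate exons, and the value cannot check the deletion. Markers of the labelled tissue were present, with En2, Pax5 and Otx2, transcription factors of the midbrain, between 11.05 and 12.63 in every library. The summed level of 8 midbrain markers was between 13.81 and 14.09. That of 7 hindbrain markers was between 8.66 and 9.41 and that of 6 forebrain markers between 11.67 and 12.21. Of the 8 midbrain markers, 3 were lower and 1 was higher against the floxed control (log2 fold changes from -0.63 to 0.56). Against the Cre control 0 were lower and 1, Pax5, was higher, in 8 of 17 alternatives. The forebrain sum was between 11.67 and 11.70 in the cKO and at 11.91 or more in every control library, and 1 of 4 forebrain genes tested, Lhx2, was lower against each control, in 17 of 17 alternatives. Of 5 hindbrain genes tested, 3 were lower against the floxed control (median log2 fold change -0.85, 1 gene with no filter on low values), and 0 passed against the Cre control with limma or had an unadjusted p under 0.05 (median 0.02). Against the floxed control, 38.3% of all genes tested passed an adjusted p under 0.05 in the cKO, 19.5% higher and 18.8% lower, and 2.92% also passed a fold change of 1.5. Against the Cre control these shares were 9.72%, 4.86%, 4.85% and 0.563%. The 2 controls differed from each other in 0.057% of the genes (0.0285% with the fold change).

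In cKO against the floxed control, 5 of the 10 genes were higher past the adjusted p (Bmp4, Bmp7, Msx1, Msx2 and Id3), 1 was lower (Id4), and Bmp5, Bmp6, Id1 and Id2 did not pass. The share of 6 in 10 stands beside a background of 38.3% over all genes. The summed log2 level of meningeal and head mesenchymal markers was also higher, between 16.10 and 16.16 in the cKO and between 15.07 and 15.87 in the floxed control, and in bulk tissue the number of cells of a type and the RNA per cell cannot be told apart. Relative to the Cre control, 2 of the 10 passed, Id2 higher and Id4 lower, beside a background of 9.72%. Between the controls 0 of the 10 passed with limma, and 4 (Bmp7, Id1, Id2 and Id3) had an unadjusted p under 0.05, as had 2451 of all 14029 genes tested. Id4 alone passed against both controls. All differences were under a fold change of 1.5 with all libraries, and 0 of the 10 were then DEGs in any of the comparisons with limma, but without replicate 2 of the floxed control Bmp4 and Msx2 were DEGs relative to that control, with log2 fold changes of 0.70 and 0.65 (limma, adjusted p = 7.03e-04 and 0.00608). With all libraries 6 genes in each cKO comparison had an unadjusted p under 0.05. Of all 14029 genes tested, 6743 did so where the cKO was compared with floxed libraries. The number was 4109 where it was compared with Cre control libraries.

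**Figure D1:**
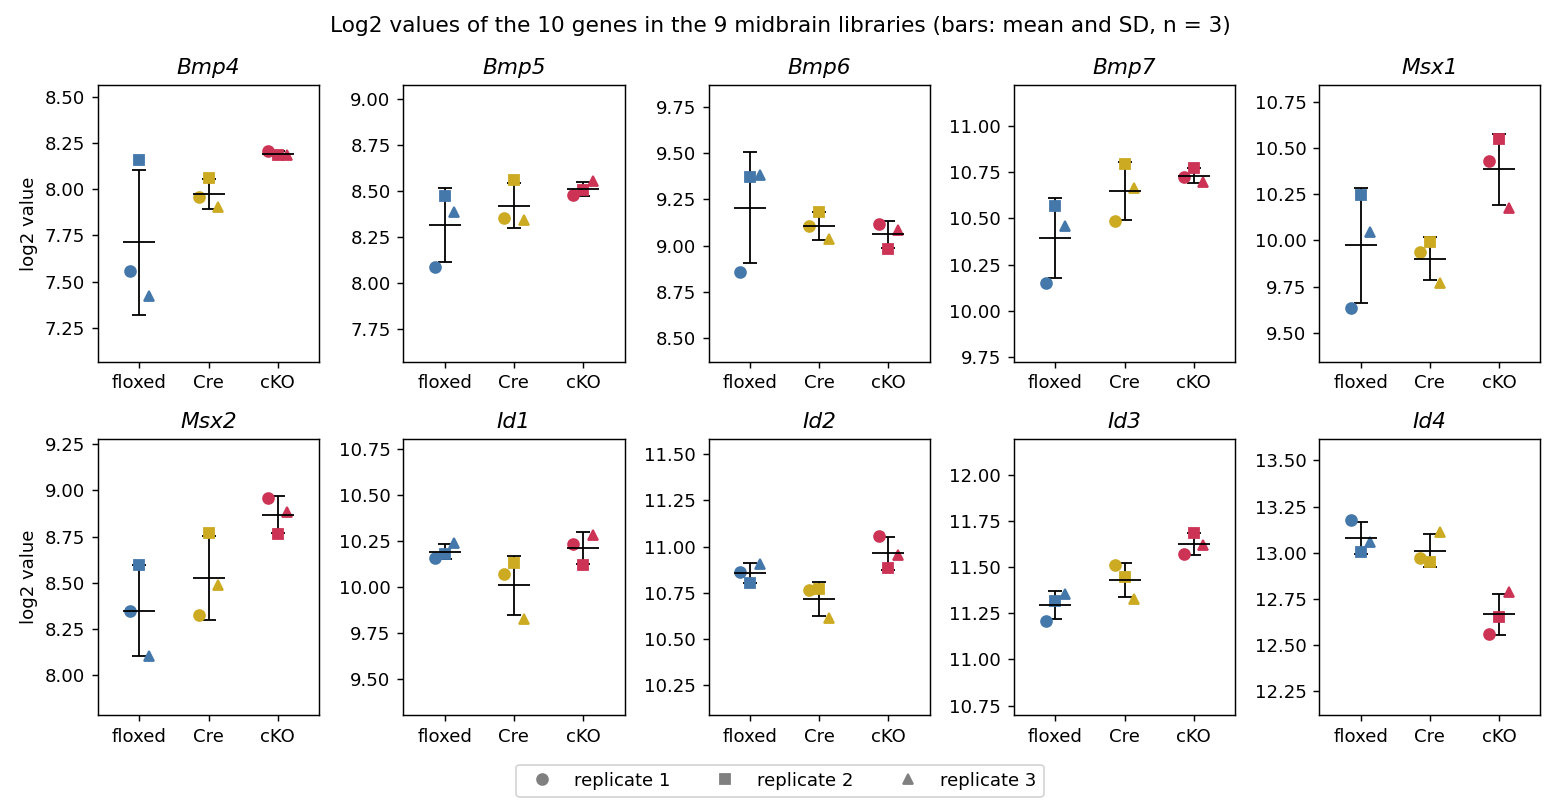
Log2 value of each gene (vertical axis, a span of 1.5 in every panel) in the 9 libraries, grouped by genotype on the horizontal axis. Symbols mark the replicate number and black bars the mean and SD of 3 libraries. All cKO points lie below all control points for Id4, and above them for Id3 and, by a small margin, for Bmp4.

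**Figure D2:**
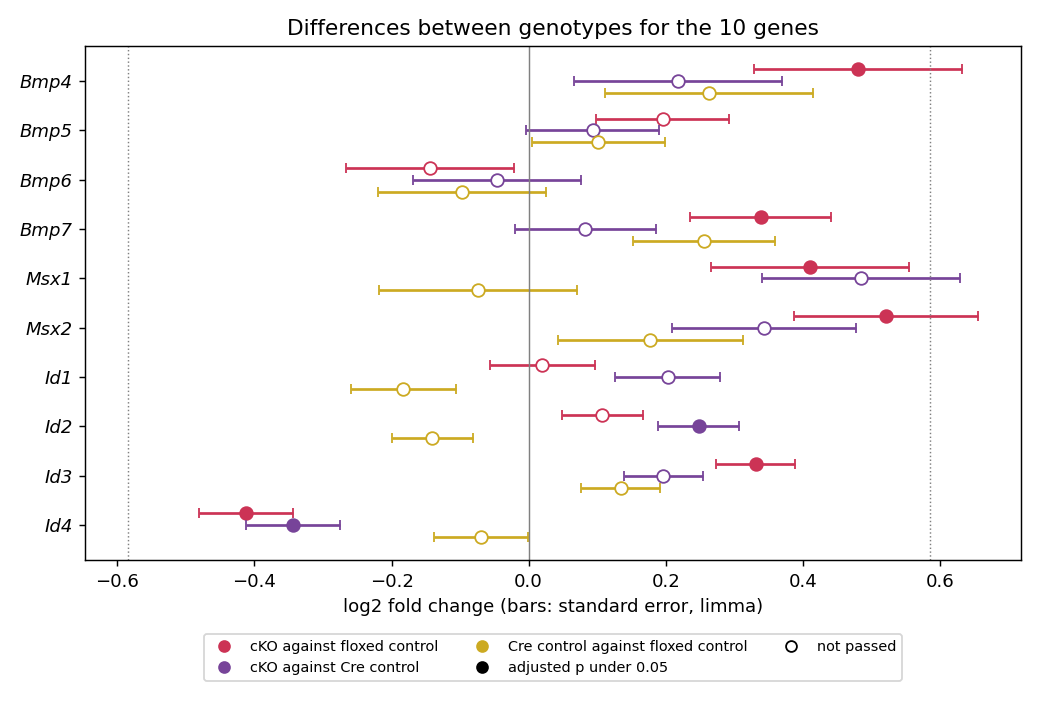
Log2 fold change (horizontal axis) of the 10 genes in the 3 comparisons, with the standard error from limma. Filled points passed an adjusted p under 0.05 and dotted lines mark a fold change of 1.5, which no point reaches.

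Levels were compared between genes only after division by exon length, as linear value per kb of the union of exons (the linear value is 2 to the power of the deposited value, which is taken to scale with reads). On this scale the Id genes were the most abundant in the floxed control, with Id4 at 2251 ± 138 (SD, n = 3), Id3 at 1404 ± 73.9, Id1 at 1009 ± 30.2 and Id2 at 761 ± 27.2. Bmp7 at 337 ± 48.8 and Msx1 at 330 ± 68.5 followed and did not differ beyond their spread. Bmp6 was at 153 ± 29.8. Msx2 at 100.4 ± 17.2, Bmp4 at 95.7 ± 27.3 and Bmp5 at 79.7 ± 10.8 were lowest, and these neighbours overlapped in their SD. In the cKO the order at the top differed, with Id3 at 1765 ± 70.2 and Id4 at 1693 ± 132 per kb, which overlapped. The ratio of Id4 to Id3 per kb within a library was 1.61 ± 0.18 for the floxed control, 1.40 ± 0.18 for the Cre control and 0.96 ± 0.072 for the cKO (SD, n = 3), with all 3 cKO libraries below all control libraries. With the longest transcript in place of the union of exons, the ratios were 1.15, 0.999 and 0.685. By that length Id3 and Id4 were nearest in the Cre control (2160 ± 138 and 2146 ± 134). In the cKO they were apart (2474 ± 98.4 and 1693 ± 132), so where the levels meet depends on the length used.

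**Figure D3:**
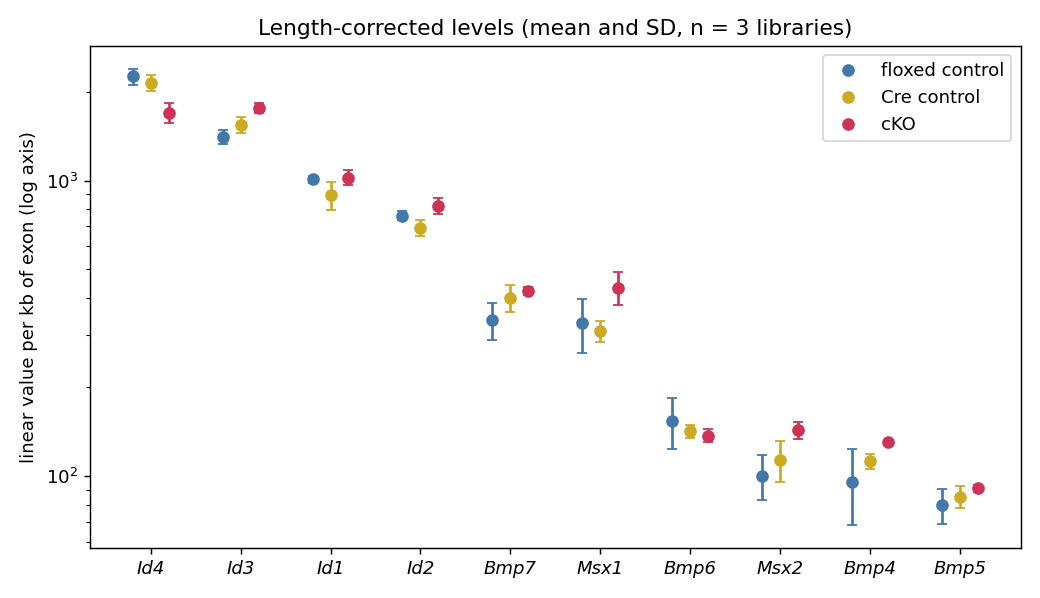
Linear value per kb of exon (vertical axis, logarithmic) of the 10 genes, ordered by their level in the floxed control, as mean and SD of 3 libraries per genotype. The Id genes lie above the Msx and BMP ligand genes in all genotypes. With the union of exons, as plotted, the points of Id3 and Id4 come together in the cKO. With the longest transcript they were nearest in the Cre control.

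Among the ligands, Bmp4 and Bmp7 rose in the cKO against the floxed control. Bmp4, a ligand of the dorsal midline and of head mesenchyme, lies on the minus strand of chromosome 14 (GRCm38, chr14:46383520-46390669). Its log2 value was 7.56, 8.16 and 7.42 in the floxed control, 7.96, 8.06 and 7.91 in the Cre control and 8.21, 8.18 and 8.19 in the cKO. The 3 cKO libraries were nearly equal and above all others, but replicate 2 of the floxed control came close to them. The log2 fold change was 0.48 (SE 0.15, 1.40-fold, limma adjusted p = 0.0307) over the floxed control and 0.22 (adjusted p = 0.366) over the Cre control. The first of these calls was lost without replicate 1 or 3 of the floxed control (limma, adjusted p = 0.106 and 0.113) and without any one cKO library (0.0816, 0.0705 and 0.0704 in turn).

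The 250 bases before the RefSeq start of Bmp4 (GRCm38.p6, minus strand, chr14:46390670-46390919) are shown, as are those of Msx1 and Id4 further on, because these windows, unlike those of the other genes in the RefSeq table, hold no annotated exon. Capitals mark matches to CANNTG, the E-box that bHLH dimers bind.

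Bmp4: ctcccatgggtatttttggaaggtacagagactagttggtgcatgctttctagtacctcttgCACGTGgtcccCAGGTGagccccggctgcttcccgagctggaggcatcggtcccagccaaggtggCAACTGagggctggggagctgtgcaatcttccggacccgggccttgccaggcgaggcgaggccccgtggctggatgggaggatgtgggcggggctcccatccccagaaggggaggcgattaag

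The Bmp4 window holds 3 such matches, which begin at -188, -177 and -123 from the start. CANNTG is present in 66.2% of the 32851 windows of the same length in the RefSeq table, so its presence is common.

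Bmp7, on the minus strand of chromosome 2 (chr2:172868012-172940321), was the ligand gene with the highest level per kb. Its log2 value was 10.15, 10.57 and 10.46 in the floxed control, 10.49, 10.79 and 10.67 in the Cre control and 10.72, 10.78 and 10.69 in the cKO. All cKO libraries were above the floxed control, whereas the Cre control spanned the range between and included the highest library. Its log2 fold change in the cKO was 0.34 (SE 0.10, 1.26-fold, limma adjusted p = 0.0264) over the floxed control and 0.08 over the Cre control (adjusted p = 0.624). In the Cre control it was 0.26 above the floxed control, which did not pass (limma, adjusted p = 0.250). With replicate 1 of the floxed control left out the cKO difference was 0.22 (limma, adjusted p = 0.0788), and it also did not pass without replicate 1, 2 or 3 of the cKO (0.0681, 0.0778 and 0.0526 in turn).

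Bmp5 and Bmp6 did not pass in any of the 3 comparisons. Bmp5 (chromosome 9, chr9:75775364-75900310) was between 8.09 and 8.48 in the floxed control, 8.34 and 8.56 in the Cre control and 8.48 and 8.55 in the cKO, with log2 fold changes of 0.20 and 0.09 (limma, adjusted p = 0.137 and 0.551). Bmp6 (chromosome 13, chr13:38345107-38500302) was at 8.86, 9.37 and 9.38 in the floxed control, 9.11, 9.18 and 9.03 in the Cre control and 9.12, 8.98 and 9.09 in the cKO. Replicate 1 of the floxed control was the lowest of the 9 libraries and the other two floxed controls were the highest. With all libraries the log2 fold change in the cKO was -0.14 (limma, adjusted p = 0.378), and without that replicate it was -0.32 (adjusted p = 0.00977). Within the floxed control, choroid plexus markers were also lowest in replicate 1, but that library was not the lowest of the 9 for their sum. Ttr, the transthyretin gene of choroid plexus, was at 11.13 in that replicate and at 13.65 and 13.32 in the other two, and the summed log2 level of 8 choroid plexus markers was 11.59, 13.88 and 13.55. The sum was between 10.39 and 12.68 in the Cre control and between 10.81 and 11.61 in the cKO, and 0 of the 8 markers were at 0 in every library. Their part in the values of Bmp6 was not tested. The gene span of Bmp6, introns included, also overlaps that of Txndc5 on the opposite strand (mean log2 value 11.86). Overlap of their exons was not examined. The library kit is not stated to keep the strand, so any reads from a shared exon could not be told apart. The same holds for Gm15217 and Gm15222 at Bmp4, Gm26903 at Bmp5 and 4930579J19Rik at Bmp6, of which Gm15217 alone has a row by that name (mean log2 value 0.28).

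Both Msx genes rose against the floxed control. Msx2, on the minus strand of chromosome 13 (chr13:53466884-53473074), was at 8.35, 8.60 and 8.10 in the floxed control, 8.32, 8.77 and 8.49 in the Cre control and 8.96, 8.76 and 8.88 in the cKO. The cKO lay above all of the floxed control, and replicate 2 of the Cre control reached into its range. The log2 fold change of 0.52 (SE 0.13, 1.44-fold, limma adjusted p = 0.0129) was close to that of Bmp4 relative to its SE. It was 0.34 against the Cre control and did not pass (adjusted p = 0.125). Without replicate 3 of the floxed control or replicate 1 of the cKO the first difference was 0.40 or 0.48 and did not pass (limma, adjusted p = 0.0507 and 0.0515).

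Msx1, on the minus strand of chromosome 5 (chr5:37820485-37824583), was at 9.63, 10.25 and 10.04 in the floxed control, 9.94, 9.99 and 9.77 in the Cre control and 10.43, 10.55 and 10.17 in the cKO. Unlike Msx2, it had a floxed library within the cKO range, and its cKO values lay above all of the Cre control. The log2 fold change was 0.41 (SE 0.14, 1.33-fold, limma adjusted p = 0.0460) over the floxed control and 0.48 (adjusted p = 0.0610) against the Cre control, so similar differences fell on either side of the threshold. The first call did not hold in 10 of 17 alternatives, among them the fits without replicate 1 or 3 of the floxed control (log2 fold change 0.24 and 0.45, limma adjusted p = 0.144 and 0.0806) and without replicate 1 or 2 of the cKO (0.39 and 0.33, adjusted p = 0.122 and 0.150). Without replicate 2 or 3 of the Cre control the difference itself stayed at 0.41 (adjusted p = 0.0538 and 0.0526). The other call was gained in 4 of 17 alternatives, among them the fits without replicate 1 or 2 of the floxed control (limma, adjusted p = 0.0320 and 0.0471), whose libraries enter that comparison only through the spread, and the fit to the 6 libraries compared (0.0484).

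The window of 250 bases before the Msx1 start (minus strand, chr5:37824586-37824835) holds 1 match to CANNTG, in capitals, beginning at -210.

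Msx1: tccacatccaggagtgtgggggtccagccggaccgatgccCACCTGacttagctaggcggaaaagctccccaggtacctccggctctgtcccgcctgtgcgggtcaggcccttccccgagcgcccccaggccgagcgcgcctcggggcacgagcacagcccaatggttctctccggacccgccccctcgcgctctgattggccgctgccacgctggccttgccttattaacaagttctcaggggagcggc

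The Id genes differed in direction among themselves. Id4, on chromosome 13 (chr13:48261228-48266026), was at 13.18, 13.003 and 13.06 in the floxed control, 12.97, 12.95 and 13.11 in the Cre control and 12.56, 12.65 and 12.78 in the cKO. The 2 controls overlapped and every cKO library lay below every control library. Id4 fell by 0.41 on the log2 scale (SE 0.068, 0.75 times the level of the floxed control, limma adjusted p = 0.00183) and, against the Cre control, by 0.34 (SE 0.068, 0.79 times, adjusted p = 0.0191). The difference from the floxed control passed in all of the 17 alternatives, with log2 fold changes from -0.47 to -0.36. That from the Cre control passed in 13 of 17 and was lost without replicate 3 of the Cre control (limma, adjusted p = 0.0702), without replicate 1 or 2 of the cKO (0.0767 and 0.0591) and with no filter on low values (0.0574). The gene span of Id4 overlaps those of the antisense gene A330033J07Rik and the lincRNA Gm49291 on the opposite strand. Neither has a row by that name, and without strand any reads from exons shared with Id4 could not be told apart.

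Id4 was also 1 of the 2 genes, with Id2, whose window holds GGCGCC, the GC-rich element that Smad proteins can bind, which is present in 9.59% of all windows of this length. In Id4 (plus strand, chr13:48260866-48261115) it begins at -148 and is shown in capitals.

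Id4: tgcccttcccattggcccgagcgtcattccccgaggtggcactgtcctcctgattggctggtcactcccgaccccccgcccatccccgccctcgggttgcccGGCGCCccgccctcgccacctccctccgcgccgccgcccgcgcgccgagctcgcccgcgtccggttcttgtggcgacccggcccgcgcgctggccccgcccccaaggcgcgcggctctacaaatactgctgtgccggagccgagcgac

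The Id4 window has a GC content of 75.6%, against a median of 52.4% over all windows, and 0 matches to CANNTG. The palindromic Smad box GTCTAGAC and the Gli consensus TGGGTGGTC, searched on both strands, were in 0 of the 8 windows of the 10 genes that the table holds, and in 0.167% and 0.225% of all windows. A match is a description of the letters and not evidence of binding.

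Id3, on chromosome 4 (chr4:136143497-136145755), moved the other way. Its log2 value was 11.21, 11.32 and 11.36 in the floxed control, 11.51, 11.45 and 11.33 in the Cre control and 11.57, 11.68 and 11.62 in the cKO. The cKO was above both controls in every library, while the controls overlapped each other. Id3 rose by 0.33 (SE 0.057, 1.26-fold, limma adjusted p = 0.00221) against the floxed control, which passed in 17 of 17 alternatives with log2 fold changes from 0.29 to 0.36. Over the Cre control its log2 fold change was 0.20 (limma, adjusted p = 0.0581), and it passed only without replicate 1 of the Cre control (0.24, adjusted p = 0.0169).

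Id2, on the minus strand of chromosome 12 (chr12:25093799-25097140), passed only in cKO against the Cre control. It was at 10.86, 10.80 and 10.91 in the floxed control, 10.77, 10.77 and 10.61 in the Cre control and 11.06, 10.88 and 10.95 in the cKO. The Cre control was the lowest of the 3 groups with no overlap with either, and the cKO overlapped the floxed control. The log2 fold change of the cKO was 0.25 (SE 0.059, 1.19-fold, limma adjusted p = 0.0332) against the Cre control and 0.11 (adjusted p = 0.176) against the floxed control. The call was lost in 8 of 17 alternatives, among them the fits without replicate 1 or 3 of the floxed control (limma, adjusted p = 0.0505 and 0.0502), replicate 2 or 3 of the Cre control (0.0540 and 0.107) and replicate 1 or 3 of the cKO (0.128 and 0.0658).

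Id1 (chromosome 2, chr2:152736251-152737410) was at 10.16, 10.18 and 10.24 in the floxed control, 10.07, 10.13 and 9.83 in the Cre control and 10.23, 10.12 and 10.28 in the cKO. As for Id2, its Cre control values lay below all of the floxed control, with a log2 fold change of -0.18 that did not pass (limma, adjusted p = 0.262). The cKO differed by 0.02 from the floxed control (adjusted p = 0.859), with a sign that turned without replicate 3 of the cKO (-0.016), and by 0.20 from the Cre control (adjusted p = 0.114).

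Counted by overlap, 6 of the 10 genes had no overlap between cKO and floxed control (Bmp4, Bmp5, Bmp7, Msx2, Id3 and Id4), beside 57.1% of all genes tested. In the other cKO comparison this held for 5 (Bmp4, Msx1, Id2, Id3 and Id4), beside 31.5%, and between the controls for 2 (Id1 and Id2), beside 22.8%. The comparisons share their libraries and are not independent of each other.

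Markers of tissue outside the neuroepithelium also differed between the genotypes. The summed log2 level of 14 markers of meninges and head mesenchyme, led by the collagen genes Col3a1, Col1a2 and Col1a1, was 15.39, 15.87 and 15.07 in the floxed control, 15.41, 16.08 and 15.87 in the Cre control and 16.16, 16.13 and 16.10 in the cKO. Of these 14 markers, 9 passed as higher in the cKO relative to the floxed control (median log2 fold change 0.51). The 9 became 5 without replicate 1 or 3 of the floxed control, and 4 without any one cKO library or with no filter on low values. Relative to the Cre control 0 passed with limma (median 0.17), 2 had an unadjusted p under 0.05, and 0 were at 0 in every library. That 0 became 1 lower without replicate 1 and 1 higher without replicate 2 of the floxed control. In Msx2 the library with the lowest marker sum, replicate 3 of the floxed control, was also the lowest, and replicate 2 of either control, which had the highest sums of its group, was the highest of its group. The same replicates were the highest of their group for Bmp4, Bmp7 and Msx1, and also for Bmp5, which did not pass. They were not the highest for Id3. Bmp4 was also lowest in replicate 3 of the floxed control (7.42), but Bmp7 and Msx1 were lowest in replicate 1 of that group (10.15 and 9.63). In replicate 2 of the Cre control, with a sum of 16.08, Bmp4 (8.06) and Msx1 (9.99) lay below all cKO libraries. In that library Msx2 (8.77) was within the cKO range and Bmp7 (10.79) above it. The summed level of 12 endothelial markers, led by Kdr, Cdh5 and Cldn5, was between 12.91 and 13.26 in the floxed control, 13.05 and 13.36 in the Cre control and 13.31 and 13.40 in the cKO, with 7 of 12 higher than the floxed control. The 7 became 2 or 3 without replicate 1 or 3 of the floxed control, 4, 3 and 4 without replicate 1, 2 or 3 of the cKO and 3 with no filter. Over the Cre control 0 of 12 passed with limma, 1 without replicate 2 of the floxed control, and 2 had an unadjusted p under 0.05. The part of these markers in the values of Bmp4, Bmp5, Bmp7, Msx1, Msx2 and Id3 was not tested.

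Neural markers moved with the genotypes as well. All 8 neuronal markers, among them Tubb3, Map2 and Dcx, fell in the cKO relative to the floxed control (median of the log2 fold changes -0.46), and 3 of 8 were lower than in the Cre control (median -0.26). The 3 depended on single libraries and became 7 without replicate 1 of the Cre control, 0 without replicate 2 or 3 of that group, replicate 1 or 2 of the cKO or replicate 1 of the floxed control, and 1 without replicate 2 or 3 of the floxed control. Their summed level was between 16.97 and 17.08 in the floxed control, 16.65 and 16.96 in the Cre control and 16.48 and 16.64 in the cKO, with 0 of the 8 at 0 in every library. Of 9 progenitor markers, 6 were higher in the cKO than in floxed libraries and 3 than in Cre control libraries, among them Vim and Nes in both, while Fabp7 passed in neither. Against the Cre control, Vim passed in 12 of 17 alternatives, and the 3 became 1 without replicate 1 of the cKO. The progenitor sum was between 16.46 and 16.52, 16.47 and 16.57, and 16.67 and 16.74 in the 3 groups in turn. Their part in the difference of Id4 was not tested. Erythroid markers were higher too, 6 of 9 over the floxed control and 4 of 9 over the Cre control, with sums from 17.22 to 17.98, 17.48 to 17.69 and 17.86 to 18.81. The 6 became 2 or 3 without replicate 1 or 3 of the floxed control and 1 or 2 without replicate 1 or 3 of the cKO. The 4 became 0 without replicate 2 or 3 of the Cre control or replicate 1 or 3 of the cKO, and 1 without replicate 3 of the floxed control. Microglial, pericyte and neural crest glia and melanocyte markers passed in 0 of 7, 2 of 6 and 0 of 5 genes tested against the floxed control with limma, where 3, 2 and 0 had an unadjusted p under 0.05. The microglial 0 became 3 without replicate 2 of the floxed control and 2 without replicate 1 of the Cre control.

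**Figure D4:**
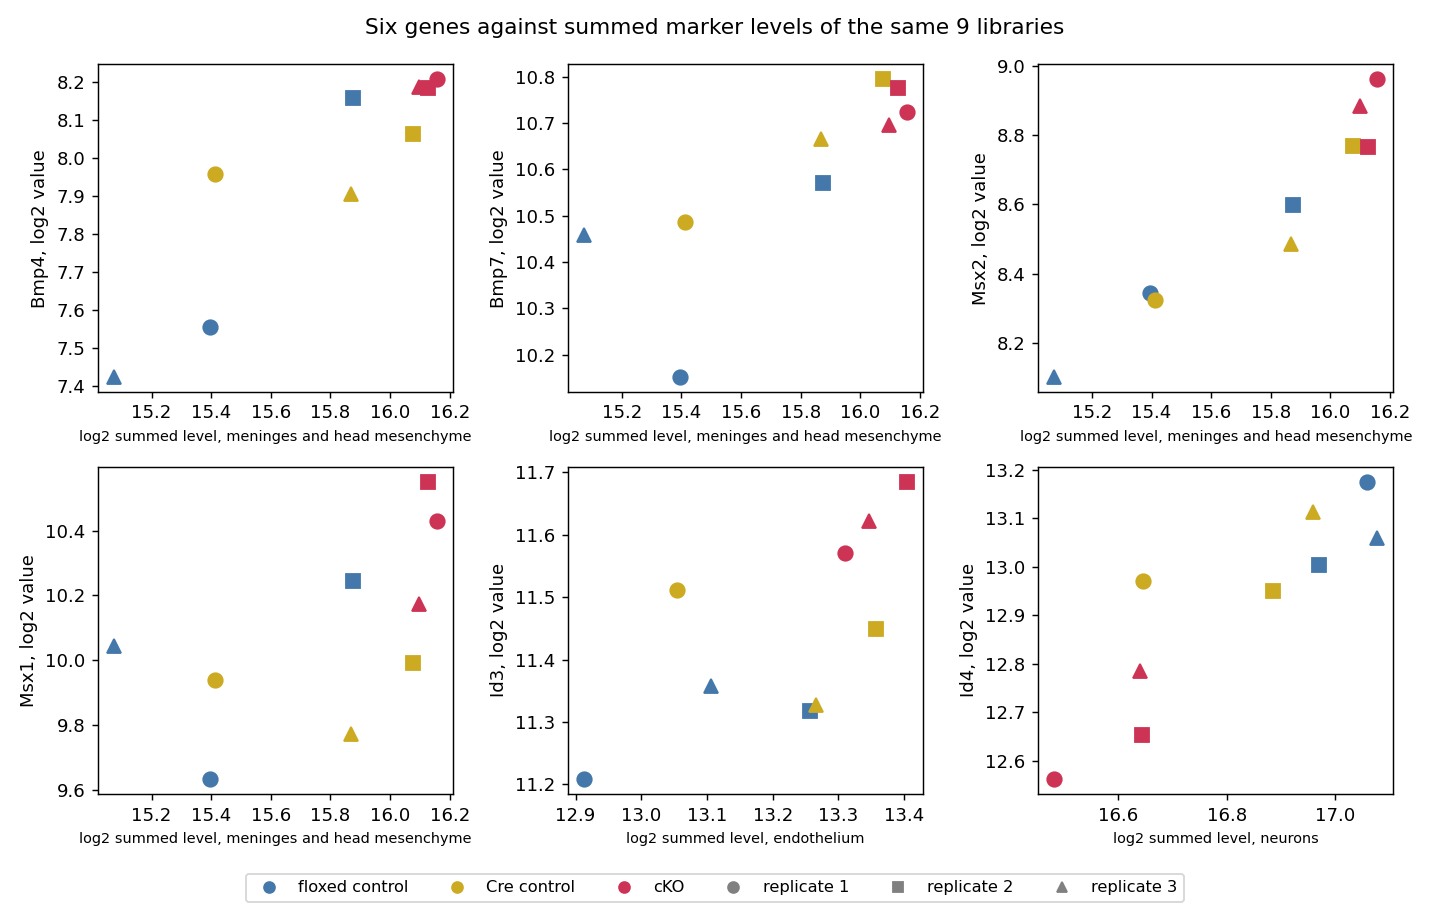
Log2 value of Bmp4, Bmp7, Msx2, Msx1, Id3 and Id4 (vertical axes) against the log2 summed level of a marker list in the same library (horizontal axes), with 1 point per library, coloured by genotype and shaped by replicate number. The cKO points have meningeal and head mesenchymal sums between 16.10 and 16.16 and neuronal sums between 16.48 and 16.64. All control points lie at lower mesenchymal and higher neuronal sums, in single Cre control libraries by a small margin. The part of the marker sums in the values of the genes was not tested.

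One ligand gene outside the 10 passed. Of 15 further BMP and GDF genes, 7 were above the filter on low values (at least 1 cpm in 3 libraries), and Bmp3, which encodes an antagonistic BMP, was the single gene that passed in the cKO, where it fell by 0.21 on the log2 scale relative to the floxed control (limma, adjusted p = 0.0429). That call was lost in 8 of 16 alternatives. In this comparison 3 of the 7 had an unadjusted p under 0.05. The log2 fold changes of the 7 were between -0.30 and 0.18, with a median of -0.18 beside 0.01 over all genes. Of all 14029 genes tested, 38.3% passed in this comparison and 6743 had an unadjusted p under 0.05. For the proteases that follow the background was the same 38.3%, and 9.72% in the comparison with the Cre control. The next list held 7 proteases that act on the ligands or on their antagonists. Of these, Pcsk6 and Furin, both convertases that cleave the ligand precursors, were higher against the floxed control by 0.96 and 0.37 (limma, adjusted p = 3.37e-04 and 0.00184). Against the Cre control they were at -0.05 and -0.02 (limma, adjusted p = 0.791 and 0.854). Pcsk6 differed between the controls, with 1.01 in the Cre control (limma, adjusted p = 0.0128), which passed in 15 of 17 alternatives. Tll1, a tolloid protease that cleaves the antagonist Chordin, was lower against both controls, with log2 fold changes of -0.26 and -0.25 (limma, adjusted p = 0.00494 and 0.0246). The second of these passed in 12 of 17 alternatives.

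Of 17 secreted antagonists tested, 3 were higher and 3 lower in the cKO against the floxed control, with a median of 0.03, beside 38.3% of all genes that passed. Against the Cre control 1 was higher and 2 were lower, and without replicate 1 of the cKO 0 passed with limma. That count was 1 without replicate 2 or 3 of the Cre control or replicate 2 of the cKO. Fst, which encodes follistatin, was at 8.29, 8.14 and 8.23 in the floxed control, 8.40, 8.56 and 8.49 in the Cre control and 9.07, 8.77 and 8.92 in the cKO. The 3 groups did not overlap, and Fst rose by 0.70 and 0.43 against the floxed and the Cre control (limma, adjusted p = 4.95e-04 and 0.0154). The second difference passed in 15 of 17 alternatives, with an adjusted p of at most 0.0551. Fstl1, a secreted protein of the follistatin family, was higher by 0.58 (limma, adjusted p = 0.00204) against the floxed control and by 0.32 (adjusted p = 0.0683) against the Cre control. Chrdl1, a Chordin-like antagonist, was at -0.44 and -0.29 in the same comparisons and passed in both (limma, adjusted p = 0.00177 and 0.0358), the second in 9 of 17 alternatives. In the comparison with the Cre control Bmper, which encodes a BMP-binding protein and was named after its values were seen, also passed, with -0.29 (limma, adjusted p = 0.0230), in 13 of 17 alternatives. Nog and Chrd, the classical antagonists noggin and chordin, also chosen after their values were seen, were at 0.03 and -0.08 against the floxed control (limma, adjusted p = 0.607 and 0.288).

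On the receiving side, 3 of 12 receptors and co-receptors were higher and 1 lower in the cKO relative to the floxed control, with a median of -0.0023. The background for this list and the next 2 was 38.3% of all genes, and 9.72% in the comparison with the Cre control. Relative to the Cre control 0 of 12 passed with limma, 3 without replicate 1 of the Cre control, and 3 had an unadjusted p under 0.05. Acvrl1 and Eng, a receptor and a co-receptor known from endothelium, rose by 0.44 and 0.49 (limma, adjusted p = 0.00470 and 0.00768), and Acvr2a, a type II receptor, fell by 0.37 (adjusted p = 0.00271). Among 12 Smads and their regulators, 1 was higher and 2 lower. In the comparison with the Cre control 0 passed with limma, and 2 had an unadjusted p under 0.05. The inhibitory Smad6 was higher by 0.22 (limma, adjusted p = 0.0254), and Smad9 and Zfp423, a cofactor of Smads, were lower, at -0.16 and -0.25 (adjusted p = 0.0331 and 0.0204). The changes of Smad6, Smad9 and Zfp423 passed in 12 of 17, 12 of 16 and 13 of 17 alternatives. The 3 calls in this list became 0 without replicate 3 of the floxed control, 1 without replicate 2 of that group or replicate 1 or 3 of the cKO, and 7 without replicate 1 of the Cre control. The 12 further target genes, which share Smad6, Smad7 and Smad9 with that list, held 4 higher and 1 lower gene against the floxed control (median 0.09). These 5 became 1 without replicate 3 of the floxed control or replicate 1 or 2 of the cKO, and 3 without replicate 1 of the floxed control or replicate 3 of the cKO. Gata2, a transcription factor of midbrain GABAergic neurons, was the member that also passed against the Cre control, with 0.24 and 0.26 (limma, adjusted p = 0.00525 and 0.0177), the second in 14 of 17 alternatives.

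Of 18 dorsal patterning genes of the midbrain, 7 were lower, 2 higher and 9 did not pass in the cKO relative to the floxed control (median -0.15), beside 18.8% lower and 19.5% higher over all genes. Relative to the Cre control 2 were lower, 1 was higher and 15 did not pass (median -0.21), beside 4.85% lower and 4.86% higher. The 7 lower genes became 4 without replicate 1 or 3 of the floxed control or replicate 3 of the cKO and 3 without replicate 2 of the cKO. The 2 became 0 without replicate 2 of the Cre control, 4 without replicate 1 of that group, and 1 without replicate 3 of the Cre control, of the cKO or of the floxed control, or replicate 1 of the floxed control. Msx3, the dorsal neural member of the Msx family, had a log2 fold change of -0.71 over the floxed control (limma, adjusted p = 0.00577), in the opposite direction to Msx1 and Msx2. It was at 8.78, 8.44 and 8.64 in the floxed control, 8.20, 8.47 and 7.78 in the Cre control and 8.03, 7.84 and 7.85 in the cKO. The Cre control overlapped both other groups, and its difference from the cKO was -0.24 (adjusted p = 0.320). Zic1, a zinc finger factor of the dorsal neural tube, was lower against both controls, at -0.29 and -0.26 (limma, adjusted p = 0.00266 and 0.0198), the second in 14 of 17 alternatives. Olig3, a bHLH factor of dorsal progenitors that was named after its values were seen, was higher against both, by 0.31 and 0.65 (adjusted p = 0.0329 and 0.00814), the first in 12 and the second in 17 of 17 alternatives. Wnt1 was higher in both genotypes with the Wnt1-Cre transgene, by 1.46 in the cKO and 1.75 in the Cre control (limma, adjusted p = 1.72e-05 and 3.47e-06), and was lower in the cKO than in the Cre control, at -0.28 (limma, adjusted p = 0.0373), which passed in 9 of 17 alternatives.

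The partners that Id proteins bind were also examined. Of 11 E protein and proneural bHLH genes, 3 were higher and 3 lower in the cKO against the floxed control, with a median of 0.06, and 2 higher and 1 lower passed without replicate 1 of the cKO. Over all genes 38.3% passed in this comparison, and 9.72% in that with the Cre control. Relative to the Cre control 0 passed with limma, 1 without replicate 1 or 3 of the Cre control, and 3 had an unadjusted p under 0.05. Tcf3, an E protein gene, and Neurog2, a proneural factor, rose by 0.31 and 0.37 (limma, adjusted p = 0.00211 and 0.00391). Neurod2, a bHLH factor of differentiating neurons, was at 9.47, 9.39 and 9.65 in the floxed control, 8.90, 9.29 and 8.47 in the Cre control and 8.31, 8.33 and 8.34 in the cKO. It fell by 1.18 on the log2 scale (limma, adjusted p = 8.89e-04) and was at -0.56 against the Cre control (adjusted p = 0.0570).

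**Figure D5:**
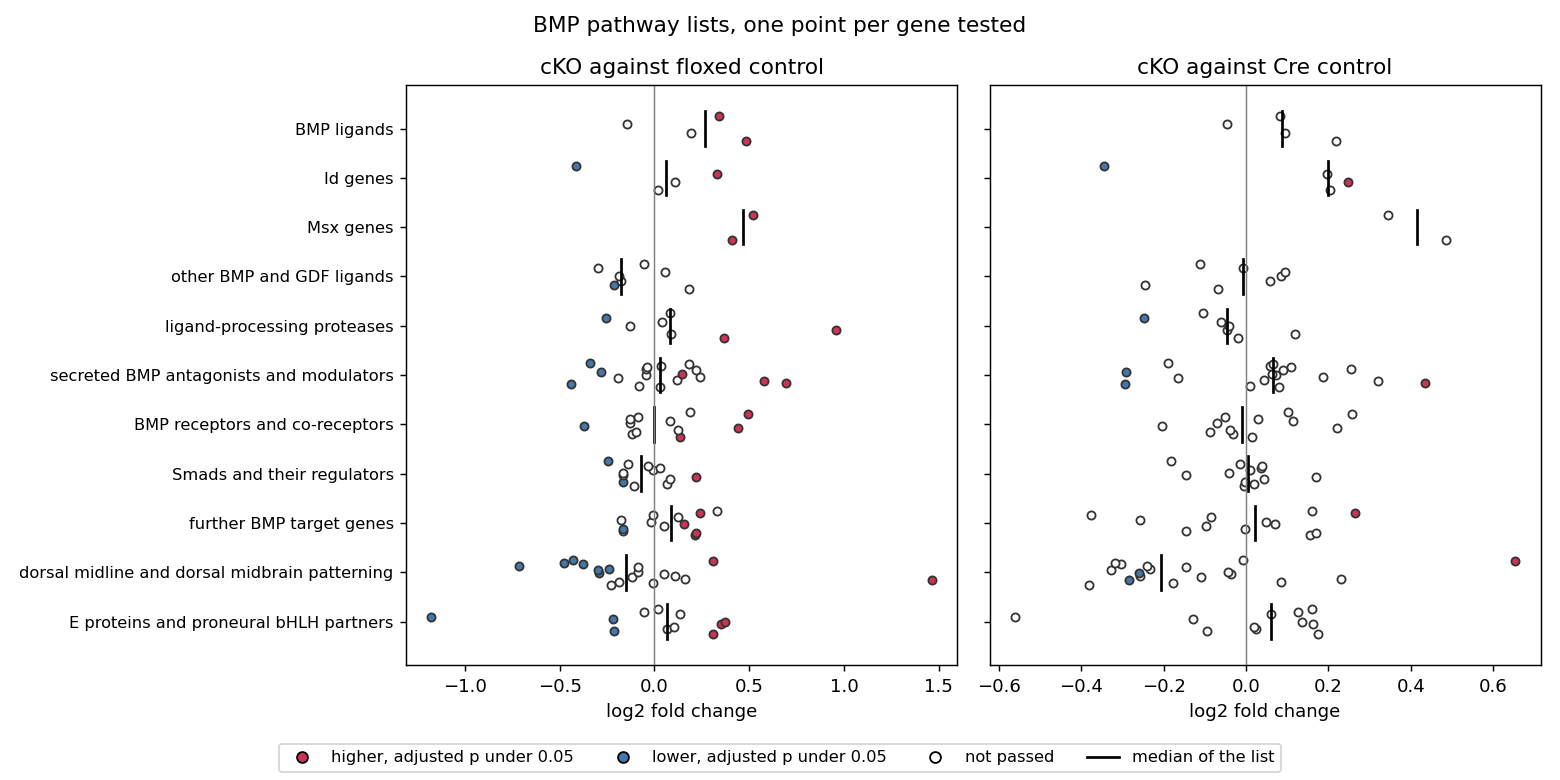
Log2 fold change (horizontal axis) of the genes tested in each list, in cKO against the floxed control (left) and against the Cre control (right). Points are genes, filled where the adjusted p was under 0.05, and black bars are list medians. Passing points occur in both directions in most lists on the left and are few on the right.

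For the 6 genes that passed against the floxed control, the genes with the nearest profiles were sought by the root mean square difference of mean-centred log2 values over the 9 libraries. Nearest to Bmp4 were Igfbp4, Prrx2 and Slc43a3 (0.072, 0.075 and 0.080), where Bmp4 itself varied by 0.27 around its mean. Nearest to Bmp7 were Aplnr, Itih5 and Lsr (0.041, 0.047 and 0.054), and nearest to Msx2 were Kdelr3, Ctsk and Gsn (0.052, 0.064 and 0.067). Msx1 had no neighbour as close, with Plvap, Spon2 and Col23a1 at 0.13, 0.13 and 0.14 and its own variation at 0.28. Those of Id3 were Ammecr1, Erf and Bak1 (0.029, 0.037 and 0.040), and those of Id4 were Mpp3, Fam171b and Ccl27b (0.045, 0.047 and 0.048). The profiles share libraries and genotype means, and were used as a description only.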

How the data were processed

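The authors prepared poly-A selected libraries (NEBNext Ultra) from dissected midbrain, sequenced them on an Illumina HiSeq and deposited 1 table of log2 values for 27360 rows, normalized between libraries in a way the sources used here do not name. The submitters' processing notes name FastQC 0.10.1, kallisto 0.46.1, DESeq2 and mm10. Depth is unknown, and at low expression the values are compressed.

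Named genes with at least 1 cpm on the linear values in 3 libraries were tested (14029). limma 3.58.1 in R 4.3.3 was fitted to all 9 libraries with a mean per genotype and a trend, with two-sided tests and Benjamini-Hochberg adjustment over all genes. The fit was tested on simulated data. A permutation of 3 against 3 libraries cannot give a p under 0.10 and was not used. DEGs were genes past both an adjusted p of 0.05 and a fold change of 1.5. Columns not used numbered 0.

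The 10 genes, the lists and the tests were chosen with earlier results of these data known. Named were the 10 genes, Gpr161, up to 3 genes with the smallest adjusted p per pathway list, genes that passed between the controls, up to 3 markers per list by level, and the nearest profiles. The alternatives were 2 filters, other fits and scalings, a replicate block and the omission of each library. Positions are from GENCODE vM21 (GRCm38) and promoter windows from RefSeq (GRCm38.p6), which matched 8 of the 10 genes.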

Additional observations from a re-analysis of the deposited data

How the results depend on the processing

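Under the 17 alternatives to the fit, Id3 and Id4 passed against the floxed control in all. The count of the 10 genes that passed there, 6, was 3 with no filter on low values and between 2 and 6 when 1 library was left out. It was 0 with the fold change over 1.5 required (2, Bmp4 and Msx2, without replicate 2 of the floxed control). The count over all genes moved too. It was 5380 of 14029 with the fit reported and 4754 of 21356 with no filter. With 1 library left out it was between 3606 and 6552. Against the Cre control 2 of the 10 genes passed. That became 0 with no filter on low values and 0 to 3 when 1 library was left out. It was 0 with the fold change required and 6 with the unadjusted p. Between the controls 0 became 0 to 1 (Bmp4, without replicate 2 of the floxed control, limma adjusted p = 0.0415) and 4 with the unadjusted p. Of all 14029 genes tested, 4109 and 2451 had an unadjusted p under 0.05 in these comparisons in turn. Of the pathway genes, 8 passed against the Cre control, 5 with no filter and 2 to 16 with 1 library left out, and 2 passed between the controls, 1 with no filter and 1 to 3 with 1 library left out. Over all genes, 9.72% and 0.057% passed in these comparisons with the fit reported. The counts over all genes moved as well. Against the Cre control, 1363 of 14029 became 630 of 21356 with no filter and 237 to 3292 with 1 library left out. Between the controls, 8 became 4 with no filter and 1 to 57 with 1 library left out. Signs turned in values that had not passed, for Id1 in cKO against the floxed control (-0.016 without replicate 3 of the cKO, up to 0.067 with another library left out), for Bmp5 between the controls (-0.012 without replicate 1 of the floxed control, up to 0.18) and for Msx1 between the controls (0.062 without replicate 2 of the floxed control, down to -0.24). With the libraries centred on their medians, the genes that passed against the Cre control were 532 higher and 831 lower, where the fit reported gave 682 and 681, and the same 2 of the 10 genes passed. Replicate numbers were not shown to pair the libraries, as same-numbered libraries correlated between -0.027 and 0.26 after removal of the genotype means. With the replicate number as a block, 6, 3 and 0 of the 10 genes passed in the 3 comparisons, Msx1 being added against the Cre control (limma, adjusted p = 0.0353). Depth limits could not be given without read counts.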
